A study of Mus musculus with 6 samples.

Results

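Expression of 10 purinergic genes was measured in meningeal neutrophils of mice, isolated from dura mater, the tough membrane that lines the skull. The 10 were taken by name from 21955 gene identifiers: the nucleotide receptors P2ry2, P2ry13, P2ry14, P2rx1, P2rx4 and P2rx7, the lysophosphatidylserine receptor P2ry10, the adenosine receptors Adora2a and Adora2b, and the ectonucleotidase Entpd1. All 10 had a row in the counts and passed the filter on low counts. Poly-A RNA was sequenced from meningeal neutrophils of WT mice after social threat exposure, in 3 libraries labelled female and 3 labelled male. No unexposed library was analysed here, so the comparison is between the labels after exposure. The sources used here give no age, no strain and no number of mice per library. They do not say whether each library is a separate animal, so a p-value sets a difference against the library-to-library spread alone, which may be technical.

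Cells release ATP and other nucleotides when they are stressed, damaged or activated, and these molecules act on neighbouring cells. P2X receptors are ion channels opened by ATP, and P2Y receptors are G protein-coupled receptors for ATP, ADP, UTP, UDP or UDP-sugars. Surface enzymes degrade the signal: Entpd1 (CD39) removes phosphates from ATP and ADP to leave AMP, and Nt5e (CD73) turns AMP into adenosine, which acts on the adenosine receptors and is then taken up or deaminated. In neutrophils, ATP receptors are known for roles in chemotaxis and activation, and adenosine acting on Adora2a is known to dampen activation. P2ry10 carries a P2Y name by sequence and is known as a receptor for lysophosphatidylserine.

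Total counts ranged from 18555944 to 20778410 in libraries labelled female and from 17098026 to 18272577 in those labelled male. Every library labelled female was thus deeper (exact two-sided permutation p = 0.1, smallest possible 0.1), and depth goes with the label. Levels are CPM, counts scaled to the library total with TMM factors, and fold changes are log2, labelled female minus labelled male, from edgeR's quasi-likelihood test with Benjamini-Hochberg adjustment over all genes tested. The label female is not borne out by Y-linked genes: 4 of them summed to 322 ± 8.94 CPM in the libraries labelled female and 313 ± 5.88 CPM in those labelled male (SD, n = 3 each; exact two-sided permutation p = 0.3, smallest possible 0.1), so groups are named by their labels throughout. Mitochondrially encoded genes took 7.43 ± 1.04% of counts in libraries labelled female and 11.99 ± 1.23% under the label male (exact permutation p = 0.1). With those genes left out of the counts, the 4 members called were also called, and P2rx7 was called lower as well (adjusted p = 0.0498 in edgeR's test). Neutrophil markers were abundant. The 13 tested summed to between 60928 and 78190 CPM in libraries labelled female and between 54841 and 60402 CPM in libraries labelled male. Of the 13, 8 were higher under the label female. The other 5 (Camp, Ngp, Ltf, Elane and Cebpe) were not called, with log2 values from -0.13 for Cebpe to 0.13 for Ltf. Markers of B cells and of dendritic cells were also present and mostly lower under that label, and their sums are given with P2ry14, which was lower as well. Erythroid markers summed to 33.6 to 64.2 CPM in libraries labelled female and 18.3 to 23.8 CPM in those labelled male, with 3 of 6 higher, and Hba-a2 had 0 counts in labelled male replicate 3; their part in the results was not tested.

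Of the 10 members, 2 were higher and 2 were lower under the label female (threshold 0.05 on the adjusted p). P2ry2 and Entpd1 were the higher genes, and P2ry10 and P2ry14 the lower ones. Among all 11903 genes tested, 13.9% were called, 7.29% higher and 6.62% lower. For 4 of the 10 members no library of one label lay within the range of the other, against 30.9% of the genes tested (15.9% higher, 15% lower), and these were the same 4 genes. The median log2 fold change was -0.13 over the members and 0.00 over all genes tested.

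**Figure D1:**
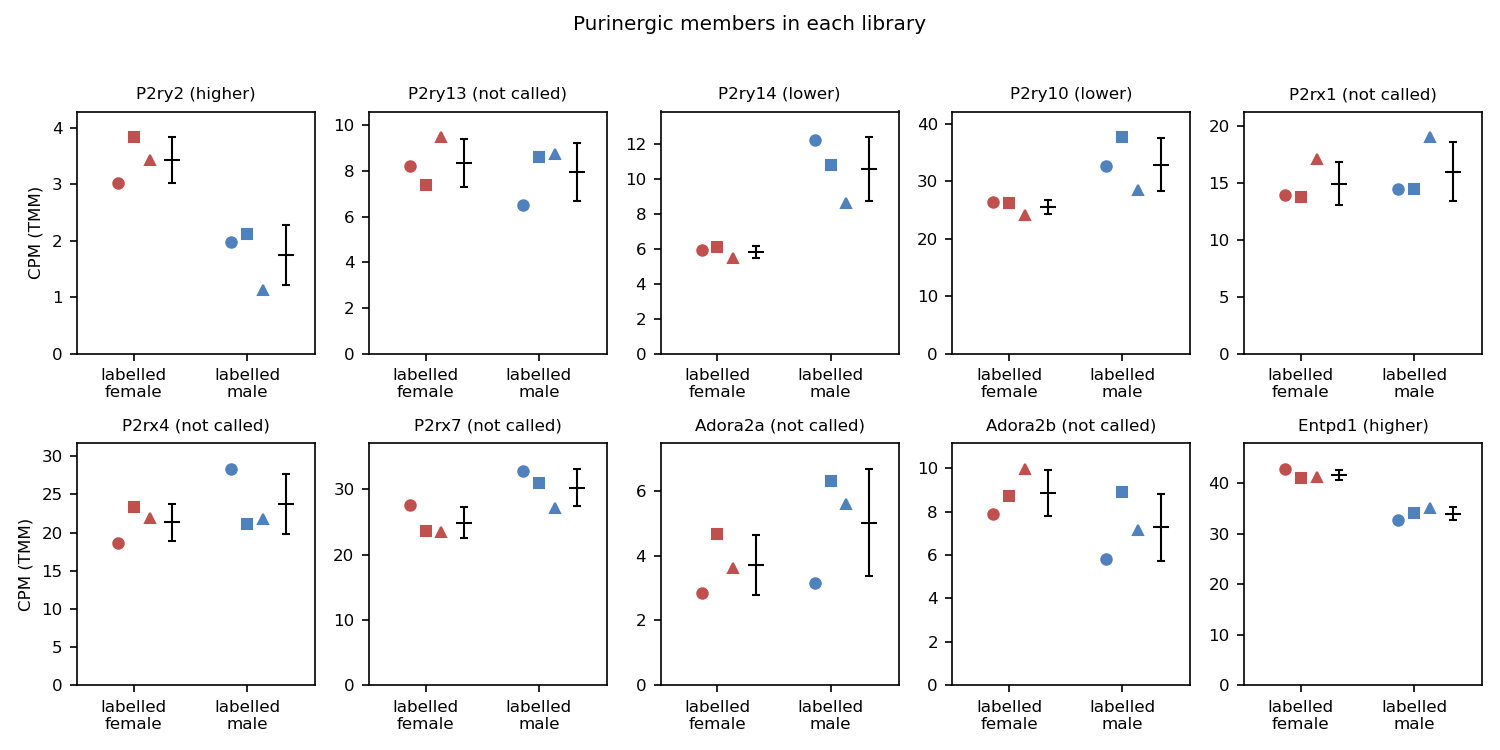
Level of each of the 10 members in CPM, with 1 point per library (circle, square and triangle are replicates 1, 2 and 3; red is labelled female, blue is labelled male) and the mean ± SD beside each group. P2ry2 and Entpd1 lie higher and P2ry10 and P2ry14 lower in all 3 libraries labelled female, while the other members overlap.

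**Figure D2:**
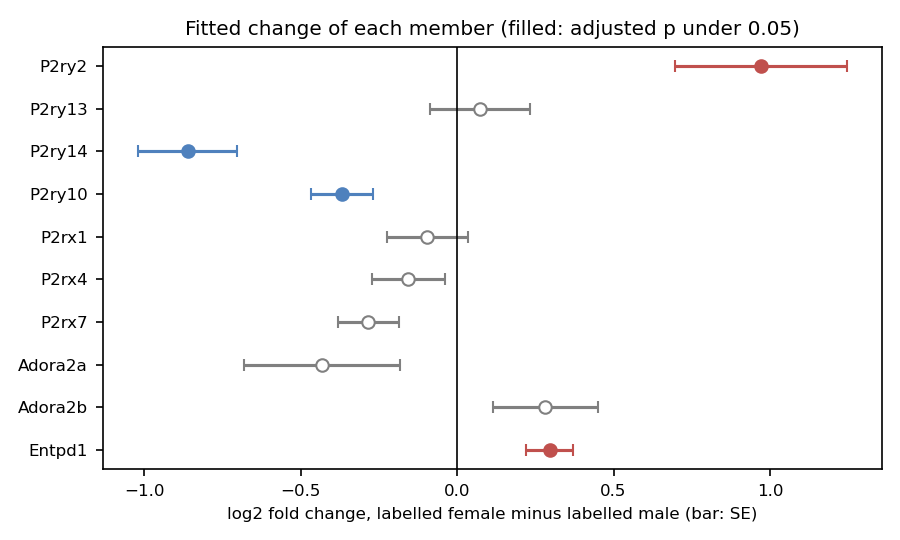
Fitted log2 fold change of each member, labelled female minus labelled male, with its SE as a bar; filled points are called. P2ry2 at 0.97 and P2ry14 at -0.86 lie farthest from 0.

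The 250 bases before the most upstream RefSeq start of each called gene are printed to show the start region of the 4 genes on which the result turns. They come from RefSeq on GRCm38.p6 and not from the files' own build, and which start is used in these cells is not known. An entry was matched for 9 of the 10 members, all but Adora2a. Capitals mark matches, on either strand and with no overlap between them, to the motifs AP-1 (TGANTCA), C/EBP (TTGCNNAA) and Sp1 (GGGCGG); the interferon-stimulated response element, the cAMP response element (TGACGTCA), the PU.1 motif (GAGGAAGT) and the TATA box (TATAAA) were searched too. Among 32851 windows of the same length, 6.75% held the AP-1 letters, 9.56% the C/EBP letters, 32.7% the Sp1 letters, 2.98% the interferon-stimulated letters, 1.55% the cAMP letters, 2.44% the PU.1 letters and 12.4% the TATA letters. P2ry2 lies at chr7:101012054-101012303 (minus strand), P2ry10 at chrX:107088242-107088491 (plus), P2ry14 at chr3:59153493-59153742 (minus) and Entpd1 at chr19:40612116-40612365 (plus).
P2ry2: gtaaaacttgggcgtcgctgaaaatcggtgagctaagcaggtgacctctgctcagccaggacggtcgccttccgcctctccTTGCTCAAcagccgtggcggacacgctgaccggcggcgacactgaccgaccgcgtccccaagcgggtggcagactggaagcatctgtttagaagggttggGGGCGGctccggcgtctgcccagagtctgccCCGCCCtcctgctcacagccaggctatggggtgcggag
P2ry10: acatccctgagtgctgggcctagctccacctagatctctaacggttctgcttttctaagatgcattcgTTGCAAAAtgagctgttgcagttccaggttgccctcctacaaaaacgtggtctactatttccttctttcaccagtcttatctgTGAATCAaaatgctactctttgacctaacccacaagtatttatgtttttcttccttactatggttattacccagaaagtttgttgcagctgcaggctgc
P2ry14: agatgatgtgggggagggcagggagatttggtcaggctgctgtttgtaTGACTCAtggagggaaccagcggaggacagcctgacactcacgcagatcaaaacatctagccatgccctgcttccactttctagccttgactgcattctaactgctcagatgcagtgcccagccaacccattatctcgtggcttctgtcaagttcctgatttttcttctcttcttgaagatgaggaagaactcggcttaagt
Entpd1: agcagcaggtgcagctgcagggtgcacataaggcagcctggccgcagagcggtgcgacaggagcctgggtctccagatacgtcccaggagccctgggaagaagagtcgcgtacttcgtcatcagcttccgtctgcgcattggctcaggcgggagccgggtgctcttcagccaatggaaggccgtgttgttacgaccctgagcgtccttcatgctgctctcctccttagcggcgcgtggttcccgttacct
P2ry2 held a C/EBP match 169 bases and Sp1 matches 69 and 38 bases before the start, P2ry10 an AP-1 match 99 and a C/EBP match 182 bases before it, and P2ry14 an AP-1 match 202 bases before it. The Entpd1 window held none of the letters searched. A match is a description of the letters and not a bound site.

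P2ry2 (ENSMUSG00000032860, chromosome 7), a receptor for ATP and UTP that couples to calcium release, was the receptor with the largest increase. It had 57, 76 and 69 counts, or 3.02, 3.83 and 3.42 CPM, in the libraries labelled female, against 35, 37 and 19 counts, or 1.98, 2.11 and 1.13 CPM, in those labelled male. Every library labelled female lay above every library labelled male. Its mean was 3.42 ± 0.408 CPM in libraries labelled female and 1.74 ± 0.531 CPM in libraries labelled male (SD, n = 3 each), a 1.96-fold difference (log2 0.97, SE 0.27, adjusted p = 0.0216 in edgeR's test). At these low counts the precision is limited: the lowest library labelled female had an exact 95% Poisson interval of 2.28 to 3.91 CPM, and the highest labelled male one of 1.49 to 2.91 CPM, which overlap; intervals cover counting error only, since PCR reads are not independent molecules. The call held in 11 of 13 alternatives, with adjusted p from 0.00461 to 0.111. It was lost without labelled female replicate 2 (log2 0.88, adjusted p = 0.0956) and without labelled male replicate 3 (log2 0.74, adjusted p = 0.111), which had the lowest level. The neutrophil and erythroid marker sums given above were higher under the same label, and their part in the result for P2ry2 was not tested.

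P2ry14 (ENSMUSG00000036381, chromosome 3), a Gi-coupled receptor for UDP-glucose, had the largest decrease among the members. It had 112, 121 and 110 counts, or 5.93, 6.10 and 5.46 CPM, in the libraries labelled female and 217, 190 and 145 counts, or 12.3, 10.8 and 8.64 CPM, in those labelled male. The 3 libraries labelled female lay close together, and all 3 lay under the lowest library labelled male. The mean was 5.83 ± 0.333 CPM under the label female and 10.6 ± 1.82 CPM under the label male (SD, n = 3 each), 1.82-fold lower (log2 -0.86, SE 0.16, adjusted p = 0.000803 in edgeR's test). It was called in all 13 alternatives in which it was tested, with log2 values from -0.99 to -0.74 and a highest adjusted p of 0.0104. B cell markers summed to 149 to 210 CPM in libraries labelled female and 248 to 307 CPM in those labelled male, with 5 of 8 tested genes lower. Dendritic cell markers summed to 231 to 240 CPM and to 334 to 353 CPM under the labels female and male, with 6 of 9 lower, and no marker on either list was at 0. Their part in the result was not tested, and in bulk samples fewer cells of a type and less RNA per cell cannot be told apart.

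P2ry13 (ENSMUSG00000036362, chromosome 3), a Gi-coupled receptor for ADP, is a neighbour of P2ry14 on the chromosome and was not called. P2ry13 had 8.20, 7.41 and 9.47 CPM in libraries labelled female and 6.50, 8.61 and 8.76 CPM in those labelled male, and the groups overlapped (log2 0.07, SE 0.16, adjusted p = 0.808). The count of P2ry14 over that of P2ry13 was 0.723, 0.823 and 0.576 in the libraries labelled female and 1.89, 1.26 and 0.986 in those labelled male. The ratio was thus lower in every library labelled female than in any labelled male. Exon lengths are 11059 bases for P2ry14 and 2528 for P2ry13, so a count ratio of 1 does not mean equal levels. Per kilobase of exon, P2ry14 lay below P2ry13 in every library, at 0.493 to 1.11 CPM against 2.57 to 3.75 CPM. Both lie in the annotated body of Med12l on the opposite strand, sharing no exon base with it. Med12l had 34 to 58 counts, and since no strand step is named, its reads cannot be told apart by strand.

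Among the other nucleotide receptors none of 4 tested was called, against 13.9% of all genes tested. P2ry1, an ADP receptor and the most abundant of them, had 24.9, 24.3 and 26.2 CPM in libraries labelled female and 25.5, 19.8 and 19.6 CPM in those labelled male (log2 0.22, SE 0.11, adjusted p = 0.189). It was called only without labelled male replicate 1 (adjusted p = 0.0438), the library with the highest level of its group, and over the 14 alternatives adjusted p ran from 0.0438 to 0.488. P2ry6, a UDP receptor, averaged 9.89 ± 0.695 CPM in libraries labelled female and 10.2 ± 1.01 CPM in those labelled male. P2ry12, an ADP receptor, averaged 6.10 ± 0.858 CPM and 6.24 ± 1.01 CPM (labelled female, labelled male). P2ry4, a receptor of uridine nucleotides, had no counts in any library, which allows up to 0.149 to 0.179 CPM at 3 counts.

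P2ry10 (ENSMUSG00000050921, chromosome X) was lower in libraries labelled female, by 1.29-fold. It had 498, 520 and 485 counts, or 26.3, 26.2 and 24.1 CPM, under that label, against 578, 660 and 478 counts, or 32.6, 37.6 and 28.5 CPM, under the label male. The groups did not overlap, though the gap between the highest library labelled female and the lowest labelled male was small. Means were 25.5 ± 1.29 CPM in libraries labelled female and 32.9 ± 4.59 CPM in those labelled male (SD, n = 3 each; log2 -0.37, SE 0.10, adjusted p = 0.0159 in edgeR's test). It was called in 12 of 14 alternatives (adjusted p from 0.00276 to 0.137) and lost without labelled male replicate 1 (log2 -0.37, adjusted p = 0.0520) and without labelled male replicate 2, its highest library (log2 -0.26, adjusted p = 0.137). The B cell and dendritic cell sums given with P2ry14 move with P2ry10 as well, and their part was not tested.

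Its paralog P2ry10b, also on the X chromosome, averaged 14.5 ± 0.686 CPM in libraries labelled female and 15.9 ± 0.661 CPM in libraries labelled male and was not called (log2 -0.14, SE 0.11, adjusted p = 0.454). Its groups also did not overlap, but barely: the highest library labelled female had 15.22 CPM and the lowest labelled male 15.23 CPM. Gpr174, a further receptor for lysophosphatidylserine, averaged 8.11 ± 1.36 CPM under the label female and 8.94 ± 0.669 CPM under the label male. Gpr34, with the same ligand, averaged 2.62 ± 0.167 CPM and 2.40 ± 0.690 CPM (labelled female, labelled male). None of these 3 was called, against 13.9% of all genes tested. P2ry10 and P2ry10b may share reads, and the counting rule for such reads is not stated in the sources.

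Of the ATP-gated channels, P2rx7 came nearest to a call. P2rx7 (ENSMUSG00000029468, chromosome 5), the channel known for driving NLRP3 inflammasome activation, had 27.7, 23.5 and 23.5 CPM in libraries labelled female and 32.8, 30.9 and 27.2 CPM in those labelled male. The highest library labelled female lay just above the lowest labelled male (log2 -0.28, SE 0.10, adjusted p = 0.0565). It was called in 7 of 14 alternatives, with adjusted p from 0.0275 to 0.228 over all 14. These were upper-quartile factors (0.0438), no filter (0.0387), the filter of 10 CPM in 3 libraries (0.0450) and no mitochondrially encoded genes (0.0498). The others were the replicate block (0.0313) and leaving out labelled female replicate 1 (0.0275) or labelled male replicate 3 (0.0483). P2rx4 (ENSMUSG00000029470, chromosome 5), a channel of surface and lysosome, had 18.7, 23.3 and 22.0 CPM in libraries labelled female and 28.4, 21.2 and 21.8 CPM in those labelled male, and only labelled male replicate 1 stood above the rest (log2 -0.16, SE 0.12, adjusted p = 0.415). P2rx1 (ENSMUSG00000020787, chromosome 11), a rapidly inactivating channel known for a role in neutrophil chemotaxis, had 13.97, 13.8 and 17.1 CPM in libraries labelled female and 14.5, 14.5 and 19.0 CPM in those labelled male. Replicate 3 was the highest of each group for P2rx1, and the groups overlapped (log2 -0.09, SE 0.13, adjusted p = 0.691).

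**Figure D3:**
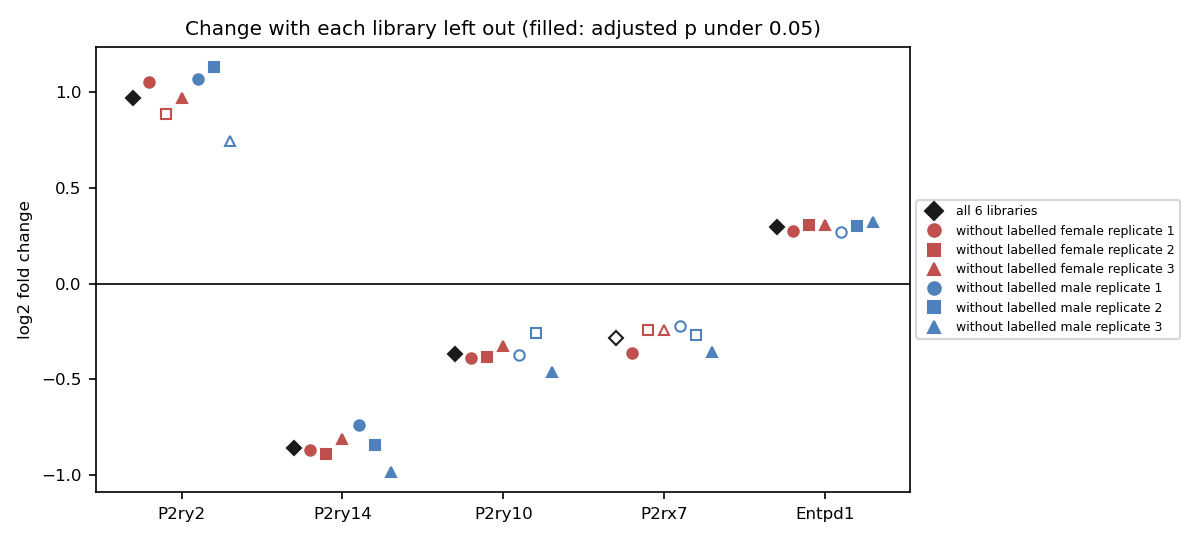
Log2 fold change, labelled female minus labelled male, of the 4 called members and P2rx7 with all 6 libraries (diamond) and with each library left out; filled points are called. P2ry14 is filled throughout, and P2ry2, P2ry10 and Entpd1 each lose the call in 1 or 2 fits.

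Neither adenosine receptor was called. Adora2a (ENSMUSG00000020178, chromosome 10), a Gs-coupled receptor of high affinity, had 2.86, 4.69 and 3.62 CPM in libraries labelled female and 3.16, 6.33 and 5.60 CPM in those labelled male, with replicate 1 the lowest of each group (log2 -0.43, SE 0.25, adjusted p = 0.278). Adora2b (ENSMUSG00000018500, chromosome 11), a Gs-coupled receptor of low affinity, had 7.88, 8.72 and 9.97 CPM in libraries labelled female and 5.82, 8.90 and 7.15 CPM in those labelled male (log2 0.28, SE 0.17, adjusted p = 0.287). The fitted values of the pair had opposite signs, and both groups overlapped for each. Adora3, the receptor among the rest that was tested, averaged 2.66 ± 0.629 CPM and 2.38 ± 0.562 CPM (labelled female, labelled male).

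Entpd1 (ENSMUSG00000048120, chromosome 19), the enzyme that starts the breakdown of extracellular ATP, was higher in libraries labelled female. It had 809, 814 and 830 counts, or 42.8, 41.0 and 41.2 CPM, in those libraries and 577, 599 and 589 counts, or 32.6, 34.2 and 35.1 CPM, in the libraries labelled male. Replicates lay within a narrow range in both groups, which did not overlap. The means were 41.7 ± 0.985 CPM in libraries labelled female and 33.9 ± 1.26 CPM in those labelled male (SD, n = 3 each), 1.23-fold higher (log2 0.30, SE 0.08, adjusted p = 0.0118 in edgeR's test). The call held in 13 of 14 alternatives (adjusted p from 0.00471 to 0.0636) and was lost without labelled male replicate 1 (log2 0.27, adjusted p = 0.0636). Monocyte and macrophage markers, from cells that also carry Entpd1, summed to 2442 to 2496 CPM in libraries labelled female and 2226 to 2290 CPM in those labelled male, with 2 of 11 higher and 1 lower, none at 0. The higher sum rests on Ccr2, at 879 ± 58.7 CPM and 613 ± 28.4 CPM (labelled female, labelled male). Adgre1 was the other higher gene and Cd68 the lower one. Ly6c2, the most abundant, was not called (1126 ± 74.1 CPM and 1160 ± 23.8 CPM, labelled female and male). The part of these markers, and that of the neutrophil markers given above, was not tested.

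Nt5e, the enzyme that makes adenosine from the AMP left by Entpd1, was higher as well. Nt5e had 22.0, 19.8 and 18.8 CPM in libraries labelled female and 12.1, 12.9 and 10.9 CPM in those labelled male. Its mean was 20.2 ± 1.65 CPM in libraries labelled female and 11.96 ± 1.00 CPM in those labelled male (1.69-fold higher, log2 0.75, SE 0.11, adjusted p = 0.000109), and it was called in all 14 alternatives. The count of Nt5e over that of Entpd1 was 0.514, 0.482 and 0.457 in libraries labelled female and 0.371, 0.377 and 0.311 in those labelled male. Entpd3, a relative of Entpd1, was also higher, from few counts: 23, 28 and 18 in libraries labelled female and 5, 4 and 6 in those labelled male (log2 2.00, SE 0.47, adjusted p = 0.00637), and it was called in all 13 alternatives that tested it. The neutrophil, erythroid, and monocyte and macrophage marker sums given above were higher under the same label, the last through Ccr2. Their part in the results for Nt5e and Entpd3 was not tested. Of the other ectonucleotidases with a row, 2 of 4 tested were higher and none lower, against 7.29% higher and 6.62% lower of all genes tested. Cd38 (16.9 ± 1.30 CPM and 14.6 ± 2.57 CPM, labelled female and male) and Enpp1 were not called. Entpd2 had no counts in any library. None of the 3 intracellular relatives tested was called; the most abundant, Entpd5, averaged 76.2 ± 5.68 CPM in libraries labelled female and 73.4 ± 6.04 CPM in those labelled male.

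Of 8 tested genes listed for adenosine uptake and breakdown, 1 was lower, against 6.62% of all genes tested. The 7 transporters and enzymes that act on nucleosides were not called. The lower gene was Dpp4 (CD26), a surface peptidase listed only because in human it binds adenosine deaminase. It averaged 33.1 ± 2.87 CPM in libraries labelled female and 45.0 ± 2.11 CPM in those labelled male (log2 -0.44, SE 0.08, adjusted p = 0.000869 in edgeR's test). Dpp4 was called in all 14 alternatives. The B cell and dendritic cell marker sums given with P2ry14 were lower under the same label, with 5 of 8 and 6 of 9 genes lower, and their part in the result for Dpp4 was not tested. Slc28a2, a nucleoside transporter and the most abundant of the list, averaged 91.4 ± 1.92 CPM in libraries labelled female and 97.6 ± 3.41 CPM in those labelled male (adjusted p = 0.337). Slc29a3, a nucleoside transporter of internal membranes that is not plotted, had 60.4, 60.3 and 52.9 CPM in libraries labelled female and 63.9, 68.3 and 66.4 CPM in those labelled male, and was not called although the groups did not overlap (log2 -0.19, SE 0.07, adjusted p = 0.0721). It was called in 1 of 14 alternatives, the filter of 10 CPM in 3 libraries (adjusted p = 0.0469, range over the alternatives 0.0469 to 0.238). The deaminase Ada and the kinase Adk were not called, with log2 values of 0.17 and 0.21 (adjusted p = 0.276 and 0.110).

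**Figure D4:**
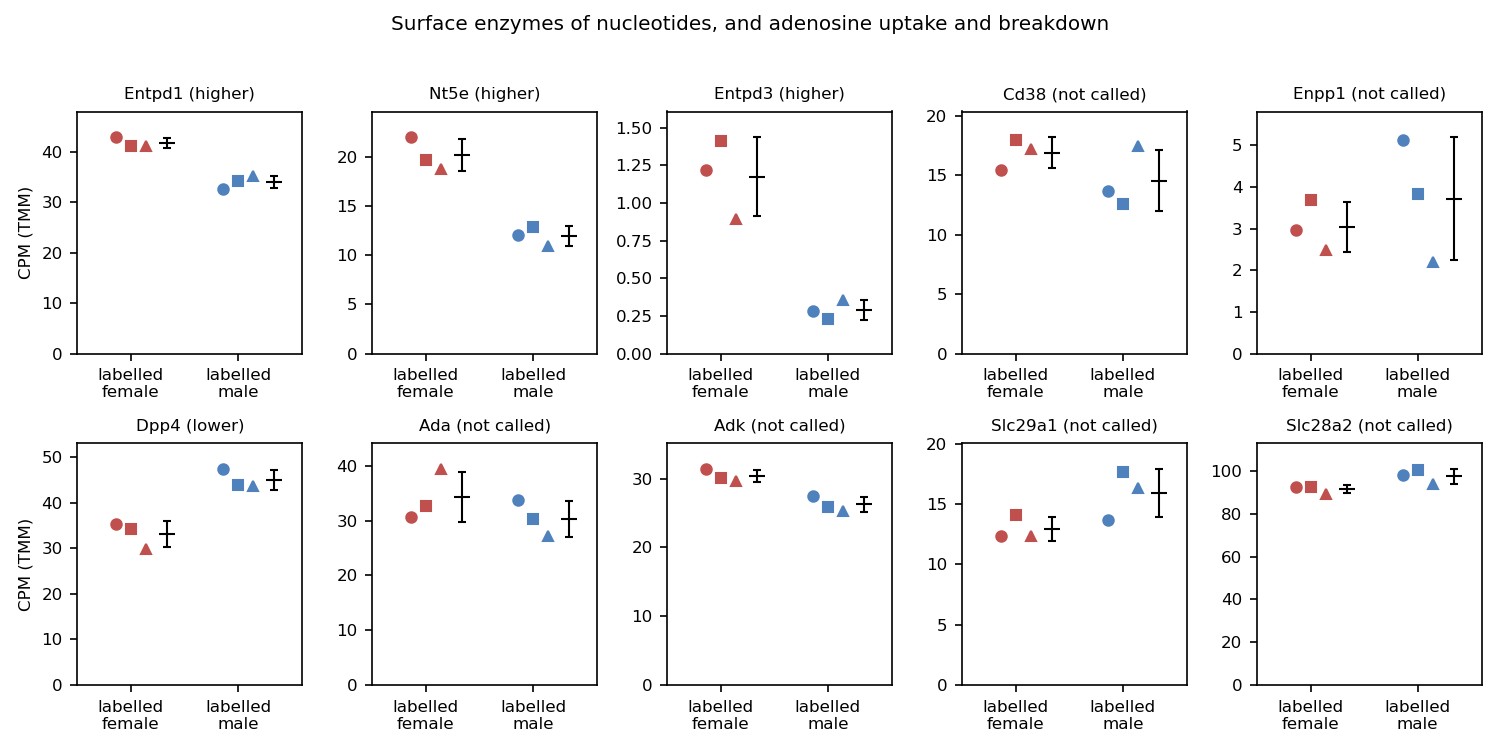
Level in CPM of the surface enzymes that degrade nucleotides and of genes of adenosine uptake and breakdown, with 1 point per library (circle, square and triangle are replicates 1, 2 and 3; red is labelled female, blue is labelled male) and the mean ± SD beside each group. Entpd1, Nt5e and Entpd3 lie higher in all 3 libraries labelled female, and Dpp4, a peptidase and not an enzyme of adenosine, lies lower. Of the genes plotted, Adk and Slc28a2 do not overlap but were not called.

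Divided by exon length, P2ry10 had the highest level of the members and P2ry2 the lowest. The medians over 6 libraries, in CPM per kilobase of exon, were 9.19 for P2ry10 (range 8.07 to 12.6), 6.82 for Entpd1 (5.84 to 7.67), 5.51 for P2rx1 (5.24 to 7.24) and 4.59 for P2rx7 (3.93 to 5.49). Adora2b followed at 4.50, P2ry13 at 3.33, P2rx4 at 3.12, Adora2a at 1.36, P2ry14 at 0.666 and P2ry2 at 0.653. P2ry10 lay clear of Entpd1 below it and Adora2a clear of P2rx4 above it, while every other pair of neighbours overlapped. In the same unit, P2ry2 had 0.768, 0.975 and 0.871 and P2ry14 had 0.536, 0.551 and 0.493 in libraries labelled female. Under the label male P2ry2 had 0.503, 0.537 and 0.288 and P2ry14 had 1.11, 0.980 and 0.781. In this unit the order of these receptors switched between the labels in all 6 libraries. The switch rests on exon lengths of 3927 bases for P2ry2 and 11059 for P2ry14. In CPM, not divided by length, P2ry14 lay above P2ry2 in all 6 libraries. P2ry2 made up 2.71 ± 0.304% of the summed level of the 9 receptors in libraries labelled female and 1.24 ± 0.351% under the label male, and P2ry14 made up 1.64 ± 0.139% and 2.68 ± 0.497% (labelled female, labelled male). P2ry10 made up 26.7 ± 2.17% and 30.8 ± 2.92%, and Adora2b 14.9 ± 1.26% and 11.0 ± 1.74% (labelled female, labelled male); shares depend on the exon lengths of one annotation.

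**Figure D5:**
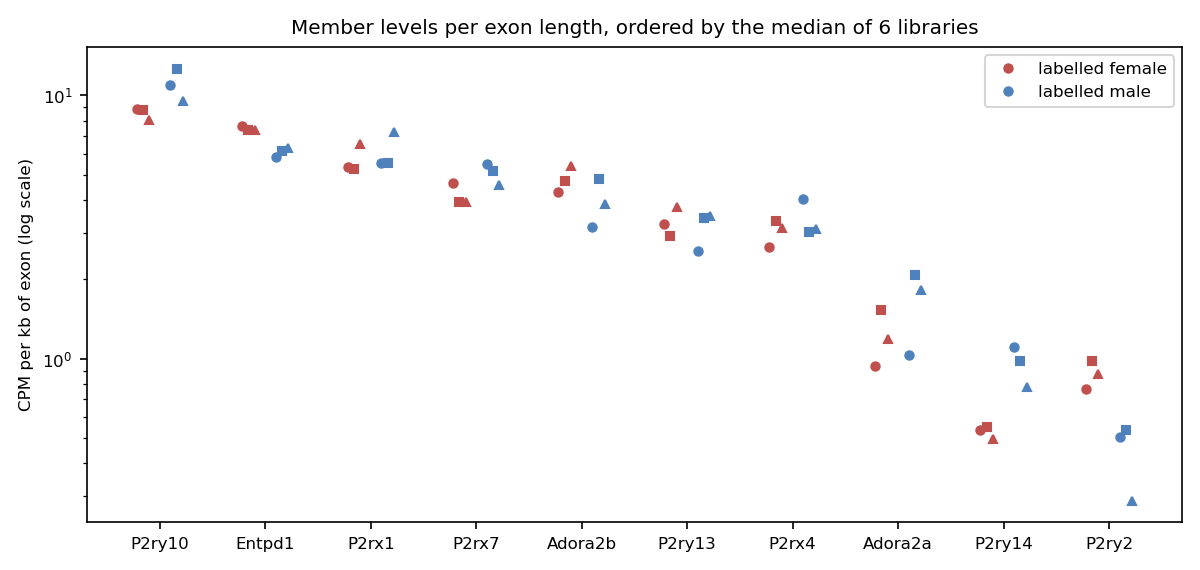
Level of each member in CPM per kilobase of exon, on a log scale, with 1 point per library (circle, square and triangle are replicates 1, 2 and 3), members ordered by their median over 6 libraries. P2ry10 lies highest. In this unit, but not in CPM, P2ry14 and P2ry2 change places between the libraries labelled female and those labelled male.

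Genes on the signalling routes of these receptors were called in both directions. Of 65 companion genes tested, out of 77 with a row, 10 were higher and 8 lower, with a median log2 fold change of -0.04. Among all 11903 genes tested, 7.29% were higher and 6.62% lower. These shares apply beside each gene list above and below. The lists are short, so their counts are a description and were not tested against those shares. The B cell and dendritic cell marker sums move with the 8 lower genes too. The neutrophil, erythroid, and monocyte and macrophage sums move with the 10 higher genes, the last through Ccr2, as given with Entpd1. The part of these cell types was not tested. For G protein and calcium signalling, which P2ry2, P2ry13 and P2ry14 use, 2 of 15 were higher and 2 lower. Gnai3, an inhibitory G protein subunit, averaged 270.1 ± 15.3 CPM in libraries labelled female and 225 ± 6.30 CPM in those labelled male (log2 0.26, adjusted p = 0.00449). Pik3cg, the lipid kinase of chemoattractant signalling, was higher (log2 0.22, adjusted p = 0.0272). Gna11, which couples receptors to calcium, averaged 14.4 ± 2.25 CPM and 20.9 ± 1.98 CPM (labelled female, labelled male; log2 -0.54, adjusted p = 0.00506), and Itpr1, a calcium release channel, was lower (log2 -0.25, adjusted p = 0.0399). Gnai3 and Gna11 were called in all 14 alternatives. Pik3cg was lost without labelled female replicate 1 or any library labelled male (adjusted p up to 0.148), and Itpr1 in every fit that left out a library other than labelled female replicate 1 (up to 0.137). Gnai2, the most abundant of the list, was not called (1150 ± 69.9 CPM and 1036 ± 12.6 CPM, labelled female and male; adjusted p = 0.0958).

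Adora2a and Adora2b act through cAMP, and 4 of 13 genes of that route were higher and 2 lower. Prkar1a and Prkar2b, regulatory subunits of protein kinase A, were higher (log2 0.25 and 0.28, adjusted p = 0.00396 and 0.00531), with Prkar1a at 369 ± 10.3 CPM and 311 ± 2.44 CPM (labelled female, labelled male). Adcy7, an adenylyl cyclase of blood cells, averaged 148 ± 4.35 CPM in libraries labelled female and 191 ± 10.2 CPM in those labelled male (log2 -0.37, adjusted p = 0.00023). Gnas, the stimulatory G protein subunit, was lower (log2 -0.60, adjusted p = 0.00213), though its locus holds overlapping transcripts and shared reads are uncertain. These 4 genes were called in all 14 alternatives. The other 2 higher genes, named after their values were seen, were Creb1, a transcription factor, and Pde4b, a phosphodiesterase (log2 0.23 and 0.26, adjusted p = 0.0216 and 0.0198). Creb1 was lost in every fit without 1 library other than labelled female replicate 3 (adjusted p up to 0.116), and Pde4b without labelled female replicate 1 or 2 or labelled male replicate 1 or 3 (up to 0.134).

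On the route from P2rx7 to the inflammasome, 2 of 10 genes were higher and 2 lower. Il1b, the cytokine that the inflammasome releases in its active form, had 138, 130.1 and 154 CPM in libraries labelled female and 67.2, 71.5 and 73.6 CPM in those labelled male (log2 0.99, SE 0.07, adjusted p = 4.31e-09). Nlrp3, its sensor, moved the other way, at 101.4, 104 and 100.4 CPM in libraries labelled female and 132, 130.04 and 149 CPM in those labelled male (log2 -0.43, SE 0.06, adjusted p = 9.94e-05). Both were called in all 14 alternatives. Casp4, an inflammatory caspase, was lower with overlapping groups (log2 -0.35, adjusted p = 0.00894), and lost without labelled female replicate 2, labelled male replicate 1 or labelled male replicate 3 (adjusted p up to 0.0762). Kcnk6, a potassium channel, was higher (log2 0.30, adjusted p = 0.0387) but was lost in DESeq2 and without any 1 library other than labelled female replicate 3 (up to 0.163). Txnip, the most abundant of the list, was not called (182 ± 5.32 CPM and 198 ± 3.63 CPM, labelled female and male; adjusted p = 0.161). Of 5 genes tied to ATP release, 1 was lower: Abcc1, an exporter of the ABC family, at 49.5 ± 1.45 CPM and 59.3 ± 3.27 CPM (labelled female, labelled male; log2 -0.26, adjusted p = 0.0166), lost without labelled male replicate 2 or 3 (up to 0.103).

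The tested genes whose log2 CPM followed each called member most closely were listed, as a description over 6 libraries that share their depth and groups. P2ry2 was closest to Itfg1 (Pearson r 0.995), Gclm (0.986) and Pa2g4 (0.982). P2ry14 was closest to Plekha1 (0.994), Zup1 (0.992) and Clec7a (0.991). P2ry10 was closest to Aldh9a1 (0.998), Slc28a2 (0.989) and Clcn4 (0.979), and Entpd1 to Mgam (1.00), Stard7 (0.996) and Pag1 (0.995). They were picked as the highest among 5401 candidates, so the values carry no test.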

How the data were processed

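Libraries were made from poly-A RNA with random-primed cDNA and read on an Illumina NovaSeq, per the labels' protocols, which name no strand step. Per the submitters' processing notes, cutadapt 1.15, HISAT2 2.0.5 and GRCm39 were used, with no role or order; the sources name no counter and no rule for strand or shared reads. Raw counts of 21955 Ensembl identifiers per library, as deposited by the authors, carry no normalization. Symbols, chromosomes and exon lengths came from GENCODE M21, an older build, whose coordinates are not printed; it named 21898 identifiers.

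The test was edgeR's quasi-likelihood test (edgeR 4.0.16, R 4.3.3) with TMM, a minimum count of 10 in filterByExpr and Benjamini-Hochberg adjustment over 11903 genes (threshold 0.05), with the label as the only term; it was tested on simulated data. Each SE follows from the fold change and the F value. The alternatives used size factors of DESeq2 or of the upper quartile, DESeq2 1.42.0, limma-voom (limma 3.58.1), no filter, 10 CPM in 3 libraries, no mitochondrially encoded genes, the replicate number as a block, and leaving out each library. Replicates differed beyond sampling noise (chi-square), so no library was a copy of another. Labelled female replicate 3 stood farthest from its group, with chi-square per degree of freedom of 14.1 and 17.3 against replicates 1 and 2. The other pairs within a label gave 4.17 to 8.41.

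The members and lists were chosen with earlier results of these data known. Named were all members, in each list up to 4 called genes and the most abundant, and for each called member the 3 genes with the highest Pearson r among those with a mean of at least 5 log2 CPM; other genes were named after their values were seen. Bst1, Cxcr2, Trac and Xist are not analysed here.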

Additional observations from a re-analysis of the deposited data

How the results depend on the processing

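No called result changed sign in any of the 14 alternatives. With the filter of 10 CPM in 3 libraries, 1 member was higher, since 5 members, P2ry2 and P2ry14 among them, were no longer tested. There 2 members were lower, P2ry10 and P2rx7. Leaving out 1 library gave 1 to 2 members higher, 1 to 3 lower, 6 to 12 companion genes higher, 5 to 12 lower, 439 to 1439 of all genes higher and 467 to 1269 lower; the highest counts over all genes came without labelled female replicate 3 and the lowest without labelled male replicate 3. Members higher numbered 1 without labelled female replicate 2, labelled male replicate 1 or labelled male replicate 3. Members lower numbered 1 without labelled male replicate 1 or 2, and 3 without labelled female replicate 1 or labelled male replicate 3. Of single values, 12 of 135 for members and 42 of 896 for companion genes changed their call. The replicate numbers were not treated as pairs in the main fit. Deviations of same-numbered libraries correlated at -0.04, 0.06 and 0.06, and not every library correlated best with its own number. With 3 libraries per label, such values cannot exclude a pairing. With the replicate block, 2 members were higher and 3 lower, P2rx7 being the third, against 1007 higher and 914 lower of all genes. Upper-quartile factors, no filter and no mitochondrially encoded genes each also gave 2 members higher and 3 lower, again with P2rx7. The main fit called 868 higher and 788 lower of all genes. Depth limits P2ry2, with 19 to 76 counts per library, most.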
